A study of Mus musculus with 11 samples.

Results

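The genes described here receive and relay growth factor signals: the PDGF receptor genes Pdgfra and Pdgfrb, the FGF receptor genes Fgfr1, Fgfr2, Fgfr3 and Fgfrl1, and the adaptor and signal-relay genes Frs2, Grb2, Gab1 and Ptpn11. They were the rows of the deposited table whose RefSeq transcripts carry these symbols; each of these 10 genes had 1 row, of 23286 rows in all. The study profiled polyA RNA of primary mesenchyme cells of the palate from E13.5 mouse embryos, cultured with 10% serum and then kept overnight at 0.1% serum. All 3 groups were starved in this way: 4 libraries had no ligand, 4 had PDGFA at 30 ng/mL for 1 h, and 3 had FGF1 at 50 ng/mL together with heparin at 1 µg/mL, also for 1 h. The ligand doses differ. In the labels no group had heparin alone, so FGF1 and heparin cannot be told apart, and nothing says whether libraries came from separate litters or cultures. No strain or genotype is named.

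PDGF and FGF ligands bind receptor tyrosine kinases at the cell surface, which pair up and phosphorylate each other. PDGFA acts mainly through PDGFRα, while PDGFRβ is best known as the receptor of PDGFB. FGF1 can activate every FGF receptor that has a kinase domain, with heparan sulfate or heparin as cofactor. FGFRL1 binds FGFs but has no kinase domain. FGF receptors signal mostly through the docking protein FRS2, which brings in the adaptor GRB2, the docking protein GAB1 and the phosphatase SHP2, encoded by Ptpn11. PDGF receptors bind such adaptors on their own phosphorylated tails. In mouse embryos, loss of Pdgfra is known to cause facial clefts.

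Each group was represented by 1 FPKM value per gene (fragments per kilobase of transcript, scaled to mapped fragments), which the authors estimated from all its libraries; the deposited lower and upper bounds are given here in brackets. There were no values per library, so replicate spread could not be computed here and the calls carry no p-value. How far the bounds reflect spread between libraries is not stated in the sources used here, and depth was unknown. A gene was called higher or lower only where the deposited intervals of both groups lay wholly apart. Of all rows, 11702 reached 1 FPKM in a group and were compared; 9 of the 10 genes were among them, and Fgfr3 was not. Over the 9 genes the bounds lay a median of 49.2% of the FPKM from it with PDGFA, 21.8% in starved cells and 31.9% with FGF1. All 10 measured palatal mesenchyme markers reached 1 FPKM in every group, a low bar that 11702 of 23286 rows pass in at least 1 group. In starved cells Prrx1 had 233 FPKM and Msx1 59.8, but Osr2 had 3.73 and Meox2 only 1.43. The row of Col1a1 had a failed estimate. None of 6 epithelial markers reached 1 FPKM in any group. Of 4 endothelial markers Pecam1 and Cdh5 stood at 0.0348 and 0.0324 FPKM in starved cells and Kdr and Tek at 2.03 and 1.37. The 4 skeletal muscle markers summed to 3.95 FPKM in starved, 9.81 in PDGFA and 3.54 in FGF1 cells. Of the smooth muscle and pericyte markers, Cnn1 had 112, 265 and 142 FPKM and Myh11 21.6, 41.7 and 23.4 in the same order; Acta2 had 2745, 3996 and 3389.8 and Rgs5 stayed under 1. The part of these muscle markers in the PDGFA comparison was not tested.

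Promoter windows are given before the values. RefSeq windows (GRCm38.p6, 250 bases before to 50 after the start) were at hand for 8 of the 10 genes. For 7 of them a window's start lay within 50 bases of the start of the deposited row; both Grb2 windows start 8669 and 9063 bases inside the row and do not show its own start. Those of Pdgfra and Fgfrl1 are printed because these receptors had the lowest and the highest log2 fold of the 10 genes with FGF1; capitals mark each CG pair. Pdgfra lies on the plus strand at chr5:75152001-75152300 and Fgfrl1 on the plus strand at chr5:108693979-108694278.
Pdgfra: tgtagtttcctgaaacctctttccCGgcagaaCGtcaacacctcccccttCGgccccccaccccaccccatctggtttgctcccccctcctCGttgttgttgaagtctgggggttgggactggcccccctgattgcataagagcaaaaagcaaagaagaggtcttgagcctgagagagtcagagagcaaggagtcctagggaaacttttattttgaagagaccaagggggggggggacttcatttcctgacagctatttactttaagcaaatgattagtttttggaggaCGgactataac
Fgfrl1: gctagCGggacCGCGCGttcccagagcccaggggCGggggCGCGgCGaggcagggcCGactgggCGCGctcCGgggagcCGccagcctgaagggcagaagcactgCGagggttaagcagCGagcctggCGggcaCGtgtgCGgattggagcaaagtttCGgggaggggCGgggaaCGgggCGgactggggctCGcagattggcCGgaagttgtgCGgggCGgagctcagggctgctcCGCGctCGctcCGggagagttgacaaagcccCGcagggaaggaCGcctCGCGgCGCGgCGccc
The Pdgfra window held 5 CG pairs at 51.0% GC and the Fgfrl1 window 37 at 73.67% GC, where the median of all 32851 windows was 7 CG pairs. At most 5 pairs were held by 43.56% of all windows, and at least 37 by 5.583%. Fgfr2 had 4 pairs, the internal Grb2 windows 7 and 3, Frs2 24 and Ptpn11 37.

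The third window, of Ptpn11 on the minus strand at chr5:121191348-121191647, is printed because it held the most motif matches; capitals mark a CRE and a run of overlapping EGR matches.
Ptpn11: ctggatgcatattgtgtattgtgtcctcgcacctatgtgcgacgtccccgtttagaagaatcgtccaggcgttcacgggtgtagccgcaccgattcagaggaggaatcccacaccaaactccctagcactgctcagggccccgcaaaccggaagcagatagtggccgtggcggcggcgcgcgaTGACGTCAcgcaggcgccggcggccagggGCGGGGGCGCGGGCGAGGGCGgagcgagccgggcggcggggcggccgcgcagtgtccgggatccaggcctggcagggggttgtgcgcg
Motifs were searched on both strands as letters: GCGNGGGCG for EGR factors, TGANTCA for AP-1, TGACGTCA for CREB-type factors, CCGGAAGT for ETS factors, GGGCGG as the GC box, and the CArG box of SRF by name. The EGR letters occurred 3 times in the Ptpn11 window, each match overlapping the next, and once each in windows of Fgfr3 and Fgfrl1. They stand in 5.552% of all windows. These letters are G and C apart from the open base. The matching windows had 68.67% to 73.67% GC, where the median of all windows was 52.67%. The share among windows of like GC content was not computed. The ETS letters occurred in Fgfrl1 and Frs2 (3.887% of all windows) and the CRE letters in Ptpn11 (1.79%). The Pdgfra and Fgfr2 windows held none of the 6 motifs, nor did the 2 internal Grb2 windows, and no window of the 8 genes held the AP-1 letters or a CArG box, which 7.808% and 1.629% of all windows hold. GC boxes stood in windows of Fgfr3, Fgfrl1, Frs2, Gab1 and Ptpn11, and in 35.66% of all windows; some GC boxes may share bases with EGR matches. A match describes letters only.

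By FPKM, the PDGF receptor transcripts in starved cells were nearly all Pdgfrb. Pdgfrb (mm10 chr18:61045150-61085067) had 71.1 FPKM [55.2 to 86.9] and Pdgfra (chr5:75152291-75198204) 3.87 [2.95 to 4.79]. The level of Pdgfrb per length was thus 18.4-fold that of Pdgfra, with an interval of 13.3 to 25.4 when the bounds are taken as 95% bounds, an assumption used for every ratio here. Pdgfra made up 5.16% of the summed FPKM of both genes. Of the 31-base words of Pdgfra transcripts 5.57% occur in transcripts of another gene, and 0% of those of Pdgfrb. The part of such shared sequence and of overlapping genes in the Pdgfra level was not tested. Among 58 receptor tyrosine kinase genes, all of which had a row, 34 reached 1 FPKM in starved cells. Pdgfrb ranked 4th of the 58, beside the collagen receptor gene Ddr2 (73.2 FPKM) and the Wnt-binding receptor gene Ryk (64.0), whose intervals overlapped its own; Axl (129) and Ptk7 (118) led the list. Pdgfra ranked 31st, next to Mertk at 3.95 FPKM.

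Among FGF receptors Fgfr1 was the most abundant transcript. Fgfr1 (chr8:25518772-25575714) had 43.1 FPKM [33.7 to 52.4] and ranked 8th of the 58 kinases, Fgfr2 (chr7:130162451-130266808) had 10.7 [8.34 to 13.0] and ranked 21st, and Fgfr3 (chr5:33721724-33737068) had 0.328 [0.146 to 0.511] and ranked 37th. Fgfr4 stood at 0.0220 FPKM [0 to 0.0605]. Fgfr1 made up 79.6% of the summed FPKM of these 4 kinase-bearing receptors, Fgfr2 19.7% and Fgfr3 0.607%. The Fgfr1 level was 4.04-fold that of Fgfr2 (interval 2.97 to 5.49). The kinase-less receptor gene Fgfrl1 (chr5:108694229-108706950) had 22.4 FPKM [17.5 to 27.3], 2.10-fold the level of Fgfr2 (1.54 to 2.86). Rows pool splice forms: the Fgfr1 row pools 3 RefSeq transcripts, Fgfr2 2 and Fgfr3 5, so the forms of FGF receptors that differ in ligand binding are not separated in these values.

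**Figure D1:**
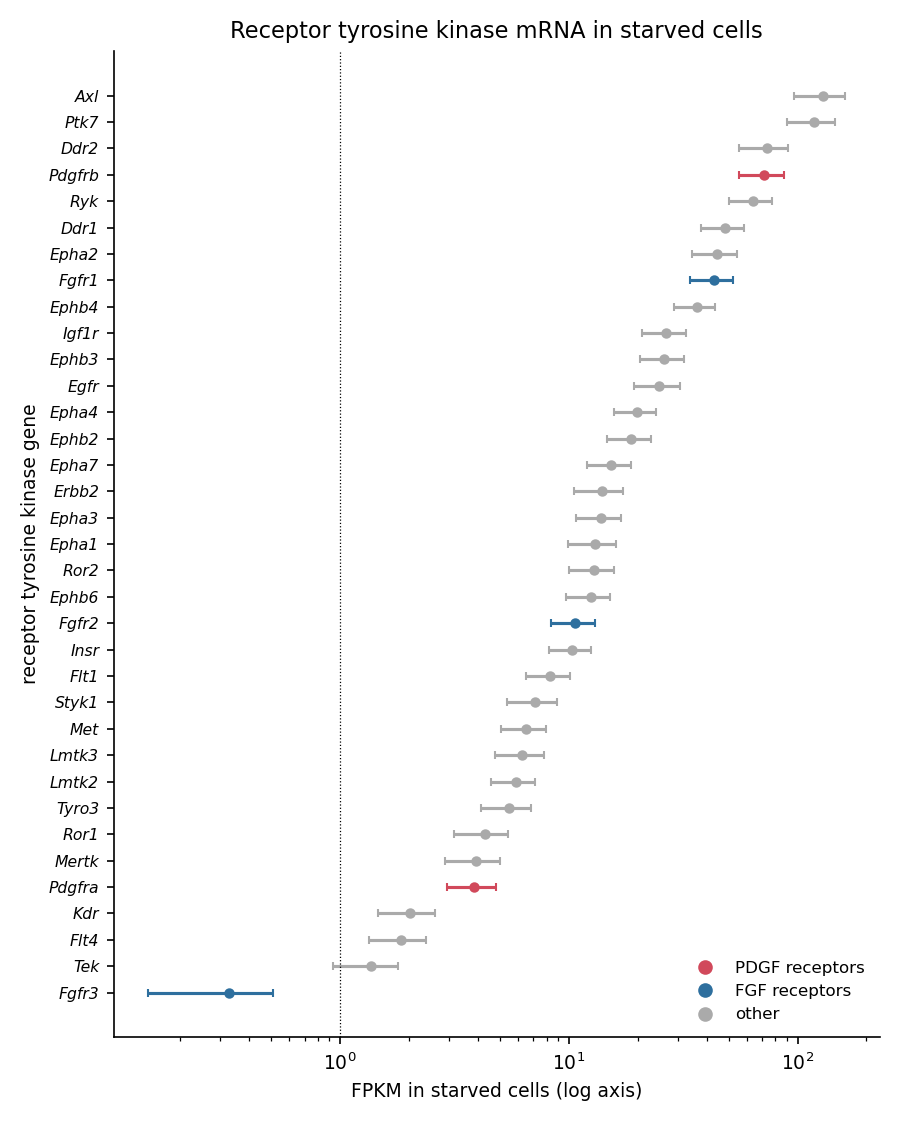
FPKM in starved cells (log axis) of the 34 receptor tyrosine kinase genes with at least 1 FPKM, and Fgfr3; points are the authors' group estimates, bars their deposited intervals, and the dotted line 1 FPKM. Pdgfrb at 71.1 and Fgfr1 at 43.1 lie near the top, Fgfr2 at 10.7 in the middle and Pdgfra at 3.87 near the bottom.

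The relay genes downstream of these receptors were all expressed. Ptpn11 (chr5:121130533-121191397) had 53.8 FPKM [42.0 to 65.6], Grb2 (chr11:115644144-115708597) 29.6 [22.5 to 36.6], Frs2 (chr10:117070127-117148474) 14.9 [11.7 to 18.1] and Gab1 (chr8:80764434-80880479) 14.0 [10.9 to 16.9]. The Grb2 level was 1.99-fold that of Frs2 (interval 1.44 to 2.74) and the Ptpn11 level 3.86-fold that of Gab1 (2.84 to 5.24). In order, the starved levels ran Pdgfrb, Ptpn11, Fgfr1, Grb2, Fgfrl1, Frs2, Gab1, Fgfr2, Pdgfra and Fgfr3. Neighbours overlapped along that order except at its lower end, where the interval of Pdgfra lay below that of Fgfr2 and the interval of Fgfr3 below that of Pdgfra. Of related adaptors, the FRS2 relative Frs3 had 2.26 FPKM, the GAB1 relative Gab2 3.31, the SHC adaptor gene Shc1 54.5, and Grb10, an adaptor that binds insulin-type receptors, 241.

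PDGFA, acting for 1 h, left the receptor and adaptor levels without a call: 0 of the 9 compared genes had intervals apart from starved cells in either direction, where 0.308% of all compared rows were called higher and 0% lower. The receptor of the added ligand, Pdgfra, had 3.52 FPKM [1.70 to 5.34] against 3.87 in starved cells, a ratio of 0.909 (interval 0.515 to 1.61). Pdgfrb had 63.9 [32.4 to 95.3] against 71.1, a ratio of 0.899 (0.523 to 1.54). Both PDGF receptor values thus lay slightly below the starved value, well inside overlapping intervals, and the level of Pdgfrb stayed 18.1-fold that of Pdgfra (8.89 to 37.05).

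FGF receptor values lay on the other side. Fgfr1 had 46.8 FPKM [23.4 to 70.2] with PDGFA, a ratio of 1.09 (0.630 to 1.87). Fgfr2 had 13.3 [7.00 to 19.5], a ratio of 1.24 (0.739 to 2.09). Fgfrl1 had 26.7 [13.54 to 39.8], a ratio of 1.19 (0.695 to 2.04). All 3 PDGFA intervals contain the starved interval, and every ratio interval spans 1. Fgfr3 stayed under 1 FPKM, at 0.404 [0.0665 to 0.747]. The adaptors had ratios between 0.883 for Frs2 (13.1 FPKM [7.20 to 19.1]) and 1.06 for Ptpn11 (56.9 [28.7 to 85.1]), with Gab1 at 0.912 (12.7 [7.10 to 18.4]) and Grb2 at 1.03 (30.6 [16.9 to 44.3]). All 9 ratio intervals with PDGFA span 1, where 1.13% of compared rows had an interval wholly above 1 and 0.0769% wholly below. A value 1.5-fold above starved cells lay within the ratio interval of every compared gene except Frs2 and Gab1.

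PDGFA folds followed base composition across all rows (Spearman 0.611 between log2 fold and transcript GC content over 11466 rows, which are not independent), against 0.183 with FGF1. The receptor transcripts differed in GC content, from 47.62% for Pdgfra to 58.60% for Fgfrl1. With a smooth trend on GC content, length and level removed, the log2 fold with PDGFA went from 0.25 to 0.02 for Fgfrl1, from 0.12 to −0.08 for Fgfr1, from −0.15 to −0.32 for Pdgfrb and from −0.12 to −0.02 for Pdgfra. Fgfr2 went from 0.30 to 0.27. The small difference with PDGFA turned direction for Fgfr1, and also for Grb2 (0.05 to −0.01).

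**Figure D2:**
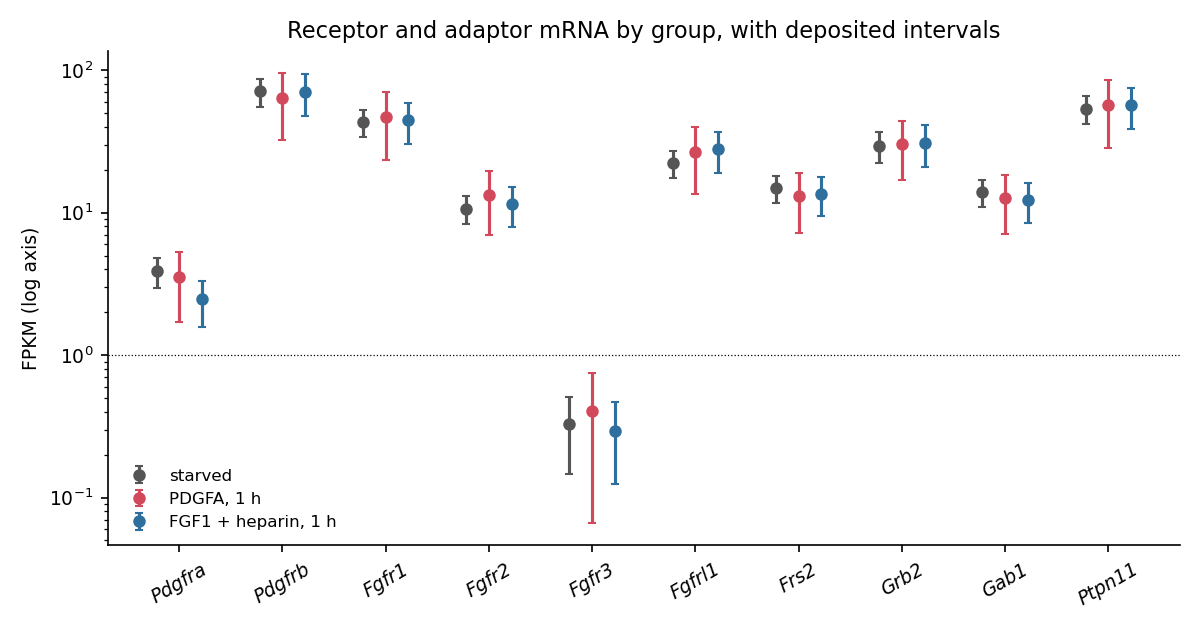
FPKM (log axis) of the 10 genes in starved cells and after 1 h of PDGFA or of FGF1 with heparin; points are the authors' group estimates and bars their deposited intervals. Bars of a gene overlap across all 3 groups, and Pdgfra with FGF1, at 2.46 FPKM, shows the widest step from its starved value of 3.87.

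With FGF1 and heparin, Pdgfra had the largest difference of the 10 genes. Its value was 2.46 FPKM [1.58 to 3.34], against 3.87 [2.95 to 4.79] in starved cells and 3.52 with PDGFA. The starved and FGF1 intervals shared only the stretch from 2.95 to 3.34, so Pdgfra was not called; 0 of the 9 compared genes were, where 0.538% of all compared rows were called higher and 0.0171% lower. The FPKM was 1.57-fold lower than in starved cells, with a ratio of 0.635 whose interval, 0.414 to 0.975, lay below 1. Such an interval wholly below 1 was found for 1 of the 9 genes and for 0.214% of all compared rows, with 1.04% wholly above; it is not corrected for the number of genes or comparisons. On the scale of log2(FPKM + 0.5) the fold was −0.56, and 40 of 11702 compared rows had a lower one. That scale understates folds of low genes, and a minimum fold of 1.5 is passed by Pdgfra at a pseudocount of 0.1 (log2 fold −0.63) and missed at 0.5. With the trend removed the log2 fold was −0.47.

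Other values moved or overlapped beside it. GENCODE M21 places the genes Gm42802 and Gm42803 on the opposite strand over Pdgfra and Mir7025 on its own strand, and 5.57% of the 31-base words of Pdgfra transcripts occur in transcripts of another gene; the strand setting of the libraries is not given in the sources used here, so reads of overlapping genes cannot be told apart. Of the 10 palatal mesenchyme markers 7 had lower values with FGF1 than in starved cells, where 5072 of 11702 compared rows did. The markers had a median log2 fold of −0.08, with Osr2 at 2.94 against 3.73 FPKM, and 0 of the 10 were called. The summed FPKM of the markers was 3183 in starved, 3935 in PDGFA and 3520 in FGF1 cells. It was mostly Vim and Col3a1, which had 1982 and 750 FPKM in starved cells. The part of the markers in the Pdgfra value was not tested. In such bulk cultures fewer cells of a type and less RNA per cell cannot be told apart.

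Pdgfrb showed no such step. It had 70.9 FPKM [47.7 to 94.1] with FGF1, a ratio of 0.998 to starved cells (0.671 to 1.48). The Pdgfrb level was 28.8-fold that of Pdgfra (17.8 to 46.8), and Pdgfra made up 3.35% of their sum. The interval of this ratio overlapped that in starved cells.

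The receptors of the added ligand had values close to starved cells. Fgfr1 had 44.9 FPKM [30.6 to 59.2] with FGF1, a ratio of 1.04 (0.709 to 1.53), and Fgfr2 had 11.5 [7.92 to 15.1], a ratio of 1.08 (0.738 to 1.58). A value 1.5-fold above starved cells lay within both ratio intervals. Fgfr3 stood at 0.295 [0.124 to 0.470]. Fgfrl1, at 27.8 [19.0 to 36.6], had the highest ratio of the 10 genes, 1.24 (0.844 to 1.82), and its interval overlapped that of starved cells from 19.0 to 27.3. Fgfr1 made up 79.1% of the summed FPKM of the 4 kinase-bearing receptors, close to its 79.6% in starved cells.

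Adaptor values with FGF1 were near those of starved cells too. Ptpn11 had 57.0 FPKM [38.8 to 75.2] and a ratio of 1.06 (0.719 to 1.56). Grb2 had 31.1 [21.04 to 41.02] and a ratio of 1.05 (0.703 to 1.57). Both ratio intervals include a value 1.5-fold above starved cells. The docking proteins lay lower, Frs2 at 13.6 [9.44 to 17.8] with a ratio of 0.914 (0.630 to 1.33) and Gab1 at 12.3 [8.47 to 16.04] with a ratio of 0.879 (0.603 to 1.28). Frs2 and Gab1 also lay below the starved value with PDGFA, but both comparisons use the same starved cells.

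**Figure D3:**
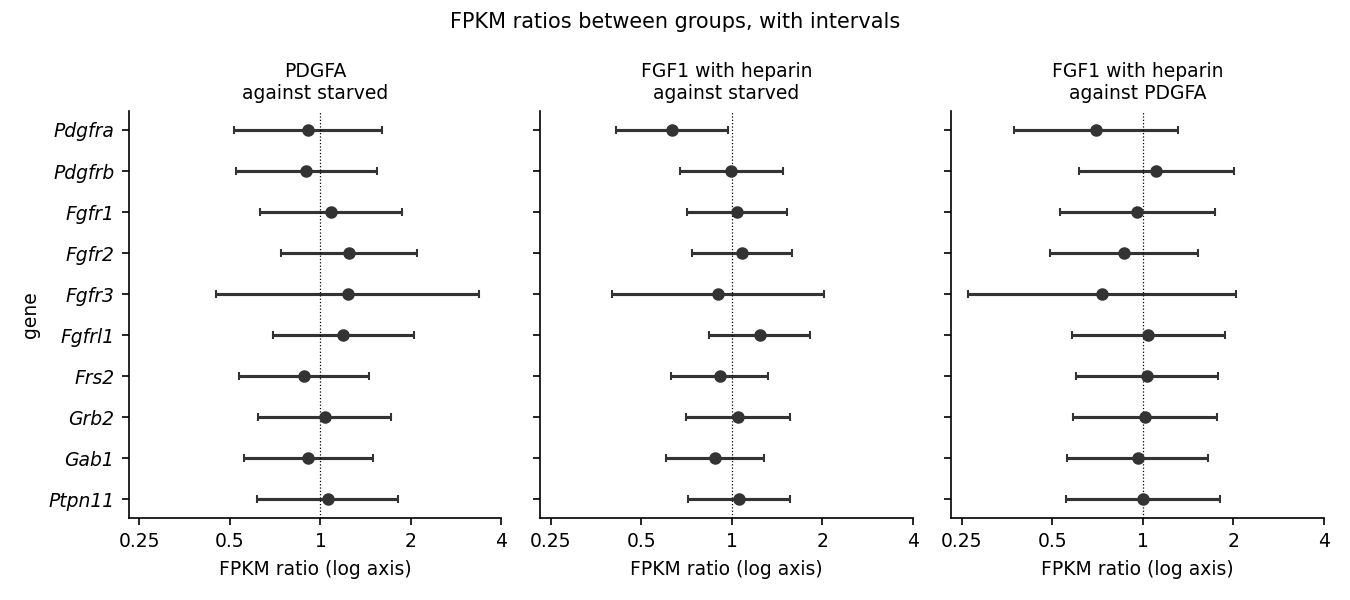
FPKM ratios (log axis) of the 10 genes in 3 comparisons; points are ratios of the authors' group estimates, bars intervals made from the deposited bounds taken as 95% bounds, and the dotted line a ratio of 1. Of the 30 bars only that of Pdgfra with FGF1 against starved cells, 0.414 to 0.975, leaves out 1.

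Between the ligands 0 of the 9 genes were called, where 0.0256% of all compared rows were called higher with FGF1 and 0.094% lower. Pdgfra had the lowest ratio of FGF1 to PDGFA among these 9 genes, 0.699 (0.373 to 1.31), and a log2 fold of −0.44, or −0.45 with the trend removed. Pdgfrb had the highest, 1.11 (0.615 to 2.01). Ratios of the adaptors lay between 0.964 for Gab1 and 1.04 for Frs2. All of these ratio intervals span 1, where 0.145% of compared rows lay wholly above and 0.367% wholly below. By size, 0.607% of compared rows were 1.5-fold higher with FGF1 and 1.99% lower, and 0 of the 9 genes were.

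Of the 4 response genes listed for orientation, 3 were called in at least 1 comparison. Egr1, an immediate early transcription factor gene, had 11.4 FPKM [8.52 to 14.2] in starved, 49.7 [23.6 to 75.7] in PDGFA and 116 [76.7 to 155] in FGF1 cells, and was called in all 3 comparisons. The ERK phosphatase gene Dusp6 and the Sprouty gene Spry4 were called higher with FGF1 only, with log2 folds of 1.68 and 1.00; with PDGFA they had 0.99 and 0.44, and neither was called between the ligands. Etv5, an ETS transcription factor gene, was called in none of the 3 comparisons, with log2 folds of −0.15 with PDGFA and 0.18 with FGF1. The receptor and adaptor genes had log2 folds between −0.17 and 0.30 with PDGFA and, Pdgfra apart, between −0.18 and 0.30 with FGF1.

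Other genes of the receptor pathway were counted by the same rule. Over 7 lists (receptor tyrosine kinases, adaptors and docking proteins, the RAS-ERK cascade, the PI3K-AKT cascade, effectors of the PLCG-PKC, SRC and STAT type, receptor downregulation, and FGF co-receptors and antagonists) 128 other genes were compared, and 0 were called with either ligand or between them. Calls are rare among all compared rows too, at 0.308% higher with PDGFA and 0.538% higher with FGF1, so a count of 0 among 128 is near the background. The median log2 fold of the 128 was −0.00 with PDGFA and 0.01 with FGF1, as in all compared rows (−0.00 and 0.02). For the 9 receptor and adaptor genes it was 0.05 and 0.06, but −0.02 and −0.02 with the trend removed. By size alone, 3 of the 128 reached 1.5-fold higher with PDGFA and 1 with FGF1, and 0 reached 1.5-fold lower; among all compared rows 3.67% and 1.26% reached 1.5-fold higher, and 0.393% and 0.299% lower. Of the 9 genes 0 reached this fold with either ligand on FPKM + 0.5.

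Epha2, an ephrin receptor gene, was the kinase that stood out. It had 44.4 FPKM [34.6 to 54.3] in starved, 68.7 [35.0 to 102] in PDGFA and 76.9 [52.4 to 102] in FGF1 cells, with log2 folds of 0.62 and 0.78. The FGF1 interval overlapped that of starved cells between 52.4 and 54.3 only. Its rank among the 58 kinases was 7th in starved cells and 3rd with either ligand, while Fgfr1 was 8th in all 3 groups and Pdgfra 31st. Pdgfrb was 4th in starved cells and 5th with either ligand. Among the 34 kinases compared 21 had higher values with PDGFA than in starved cells and 18 with FGF1; of all 11702 compared rows 5774 and 6548 did.

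Adaptors and docking proteins outside the 10 genes had median log2 folds of 0.00 with PDGFA and 0.01 with FGF1 over 18 genes. Irs2, a docking protein of insulin-type receptors, had 16.1 FPKM [12.7 to 19.6] in starved and 23.9 [11.7 to 36.1] in PDGFA cells, and the SH2-SH3 adaptor gene Nck1 20.2 [14.3 to 25.6] and 14.3 [7.21 to 21.4]. Irs1 had 19.2 [15.2 to 23.2] in starved and 15.3 [10.7 to 19.9] in FGF1 cells. Their intervals overlapped.

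In the RAS-ERK cascade, 20 genes compared, the median log2 fold was −0.09 with PDGFA and 0.05 with FGF1. With the trend removed these medians were 0.003 and 0.02. Hras, a RAS GTPase gene, had 52.0 FPKM [41.1 to 62.8] in starved and 84.2 [37.5 to 131] in PDGFA cells, and Map2k2, which encodes the ERK kinase MEK2, 45.7 [34.5 to 56.1] and 72.0 [36.8 to 107]. These were the other genes past 1.5-fold with PDGFA besides Epha2. Their intervals overlapped those of starved cells. PDGFA folds followed GC content across all rows, and the folds of these genes are not given with the trend removed. The GRB2 partner gene Sos1, a RAS exchange factor, had 7.89 FPKM in starved, 6.48 in PDGFA and 6.91 in FGF1 cells. In the PI3K-AKT cascade, 19 genes compared, the medians were −0.00 and −0.02, and the transcription factor gene Foxo1 had 3.86 [2.92 to 4.79], 2.63 [1.34 to 3.92] and 2.92 [1.93 to 3.92] FPKM in starved, PDGFA and FGF1 cells. Akt1, a kinase gene of the cascade, lay the other way with log2 folds of 0.37 and 0.15.

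For the 14 effectors of the PLCG-PKC, SRC and STAT list the medians were 0.02 and 0.02. Src, a tyrosine kinase gene of this list, had 27.6 FPKM in starved, 34.0 in PDGFA and 29.6 in FGF1 cells. Over 19 receptor downregulation genes the medians were −0.08 and 0.03; Cbl, a ubiquitin ligase that acts on activated receptors, had 9.53 [7.43 to 11.6], 7.22 [3.90 to 10.5] and 8.43 [5.81 to 11.1] FPKM in starved, PDGFA and FGF1 cells. The endocytic adaptor gene Epn1 lay the other way, with 41.1 [32.4 to 49.7], 56.7 [28.04 to 85.3] and 43.5 [29.9 to 57.1]. Of the 8 FGF co-receptor and antagonist genes compared, with medians of −0.08 and −0.07, Il17rd, an inhibitor of FGF receptor signalling, had 6.64 [5.23 to 8.07] in starved and 5.18 [3.56 to 6.79] in FGF1 cells. Cd44, a hyaluronan receptor gene of the same list, had 70.8 [55.4 to 86.2] and 88.7 [59.9 to 118], a log2 fold of 0.32 against −0.33 for Il17rd. The klotho genes Kl and Klb, cofactors of hormone-like FGFs, stood at 0.00228 and 0.0104 FPKM in starved cells.

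**Figure D4:**
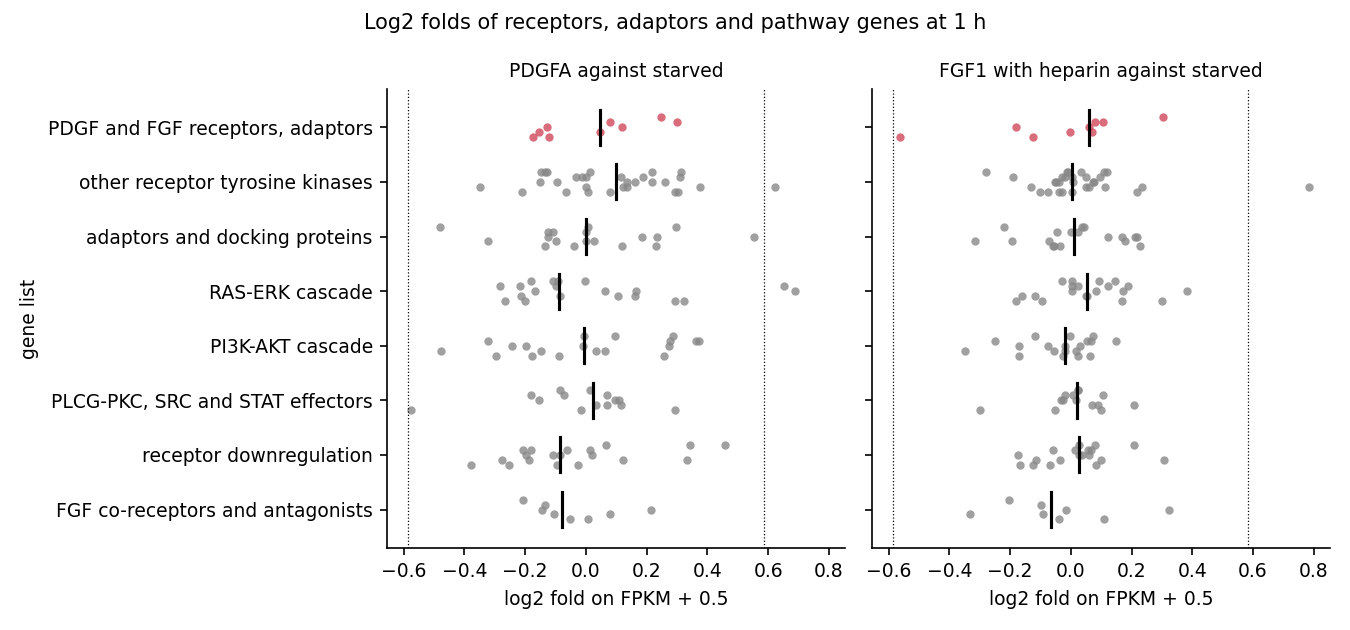
Log2 folds on FPKM + 0.5 of the 9 compared receptor and adaptor genes (red) and of 7 pathway lists without them (grey), 1 point per gene, with each list's median as a bar and 1.5-fold as dotted lines. The lists centre near 0 with either ligand; Pdgfra is the lowest red point with FGF1 at −0.56 and Epha2 the highest grey point at 0.78.

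Over the 3 group values, the pathway genes whose log2 folds with both ligands lay nearest to those of Pdgfra among 136 candidates were Il17rd, Irs1 and Lmtk3, at distances of 0.23, 0.25 and 0.28 log2 units. For Fgfr1 the nearest included Plcg2 and Erbb2, at 0.01 and 0.02. Only 3 values per gene were compared, so likeness here is a description only. Grb2 and Fgfr3 shared the most sequence with other genes, 12.1% and 14.9% of their 31-base words, and Fgfr3 overlaps G630022F23Rik on the opposite strand, so these rows depend more than the others on how such reads were assigned. Fgfr1 and Gab1 also have partners on the opposite strand (Gm16159 and Gm31105), and Fgfr2 shares an exon stretch with Ctbp2 on its own strand; of their words 3.66%, 4.67% and 2.69% occur elsewhere. For Pdgfrb and Fgfrl1 the share was 0%.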

How the data were processed

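Libraries of polyA RNA were processed by the submitters with CASAVA, TopHat and Cuffdiff on genome build mm10, per the submitters' processing notes. The sources used here name no role, version, annotation or strand setting. Per the file headers, the table the authors deposited holds FPKM, 1 per group, and its bounds, whose confidence level is not stated. Because FPKM is relative to all mapped fragments, large changes elsewhere can move a gene. A planned fit on values per library could not be made. Rows were named through RefSeq (GRCm38.p6; 22992 rows) or GENCODE M21 (126), and 168 had no name. Positions are 1-based. Rows needed 1 FPKM in a group and no failed estimate (2 rows failed); a call needed deposited intervals wholly apart, each FPKM inside its own. Log2 folds are on FPKM + 0.5. Ratio intervals take the bounds as 95% bounds and the groups as independent. Length, GC content and shared 31-base words come from GENCODE M21 transcripts. The trend was a cubic robust regression on GC content, log2 length and log2 level over transcripts of at least 200 nt. The calls were tried on simulated data with less noise than the deposited bounds imply, and the trend step on an added GC slope without noise. This does not show how often calls err at the noise of these data. The genes and lists were chosen with earlier results of these data known. Besides the 10 genes, the text names called list members, up to 4 of the largest folds per list, the leading kinases, nearest patterns, 4 response genes (Etv5 had 12.4, 11.1 and 14.1 FPKM in starved, PDGFA and FGF1 cells) and markers; Sos1, Frs3, Gab2, Shc1, Grb10, Fgfr4, Mertk, Kl and Klb were added with their values known. Some genes that the rule names are not reported here. Alternatives were the pseudocount, the minimum, scaling, trend and call rule. The trend used statsmodels 0.14.6, figures matplotlib 3.10.9, and all else scipy 1.17.1, pandas 2.3.3 and numpy 2.4.6 under Python 3.11.15.

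Of the other marker lists, blood markers (3 of 4 matched to a single row) summed to 0.216, 0.183 and 0.169 FPKM in starved, PDGFA and FGF1 cells, neural crest glia to 1.86, 1.37 and 1.81, neurons to 37.0, 49.8 and 44.8 (nearly all Tubb3), and smooth muscle and pericytes to 2879.5, 4304 and 3556 (mostly Acta2).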

Additional observations from a re-analysis of the deposited data

How the results depend on the processing

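No receptor or adaptor gene was called in any of the 3 comparisons under any of the 9 alternatives run: pseudocounts of 0.1 and 1, no minimum or 5 FPKM, median-of-ratios or quantile scaling, the trend removed, z values from the bounds, and a fold of at least 1.5. The 1.5-fold rule was run at a pseudocount of 0.5 only. Pdgfra with FGF1 would pass it at 0.1, with a log2 fold of −0.63. A ratio interval wholly on 1 side of 1 was not among the 9 alternatives, and Pdgfra with FGF1 had one (0.414 to 0.975). All 263 folds and starved levels listed under the alternatives stayed inside the interval of the value as reported. The minimum, the z values and the 1.5-fold rule leave a fold as it is, so those could not differ. Only the pseudocount, scaling and trend could move a fold, and the pseudocount cannot alter a call by intervals. The intervals are wide, so staying inside them says little about robustness. With 5 FPKM as the minimum Pdgfra was no longer compared. Counts over all rows moved by more than 1.5 times in some cases. With a fold of 1.5 in place of intervals there were 476 rows for PDGFA, 182 for FGF1 and 304 between ligands, against 36, 65 and 14. With z values, adjusted by Benjamini-Hochberg over all compared rows, there were 34 for FGF1 and 33 between ligands. With 5 FPKM there were 8 between ligands, since fewer rows were compared; the cause of the other moves is the rule itself. No paired analysis was possible because the table holds 1 value per group, and for the same reason leaving out each replicate was not run. Depth is unknown, and PDGFA values had the widest median interval of the 3 groups, with folds that followed GC content.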
